A study of Mus musculus with 24 samples.

Results

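Livers of mice fed a diet enriched in safflower oil (SFO) were compared with livers of mice fed chow, taking every gene of the deposited count table and giving each effect as SFO over chow. The comparison uses all SFO and chow libraries that have counts, which are SFO 1, 2, 3, 5 and 6 and chow 1 to 6, or 11 of 23 libraries in the table. The study asked which liver pathways respond to a diet rich in cottonseed oil (CSO) and how that differs from diets rich in olive oil (OO) or safflower oil. All mice were male wild-type C57BL/6, a common inbred laboratory strain, and stayed on their diet for 6 weeks. The labels name 24 samples, 6 on each of 4 diets. SFO 4, which the submitters set aside as far from its group and possibly contaminated, was not analysed here. The ages of the mice and the composition of the diets are not given in the sources used here, so the oil cannot be told apart from the rest of the diet. RNA was read with QuantSeq, a method that counts tags at the 3′ end of messenger RNA, so that a count does not grow with the length of the transcript.

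Library totals ran from 5.43e+06 to 1.49e+07 counts. Alb, which encodes serum albumin, the main secreted protein of hepatocytes, had 86662 to 115864 CPM in chow and 84657 to 127784 CPM in SFO (CPM, counts scaled to a common library size after normalisation). Chow 3, chow 4 and chow 5 also held transcripts of skeletal muscle. The summed level of 29 muscle genes was 3044, 5628 and 1303 CPM there, against 36.1 to 245.5 CPM in the other chow libraries and 26.3 to 292 CPM in SFO. The labels do not say whether samples came from separate mice, and a p-value here compares a difference only with the variation among these samples, some of which may be technical. Unless given in CPM, a value with ± is a log2 fold change with its SE, as edgeR's quasi-likelihood test gave it, and a gene is said to have risen or fallen when its Benjamini-Hochberg adjusted p over 11971 tested genes was under 0.05. By this rule 100 genes changed (0.835%), 59 of them higher and 41 lower in SFO, and the median of all tested genes was 0.01. Counts at an unadjusted p under 0.05 are from the edgeR test, and calls by DESeq2 or limma voom are at an adjusted p under 0.05. Of the 100, 49 kept the call whichever of the 11 libraries was left out, and the number of calls was lowest without SFO 5 (59), SFO 1 (60) and chow 5 (64). Without chow 3, 4 and 5, a fit with 3 chow libraries, 37 genes were called, 36 of them among the 100. The direction was then the same for all 98 of the 100 genes that could still be tested. In whole liver, fewer cells of a type and less RNA per cell cannot be told apart.

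The liver makes most plasma proteins, and during inflammation the cytokine IL-6 acts through the transcription factor STAT3 to raise a set of them, the acute phase proteins. Secreted proteins are folded in the endoplasmic reticulum, where chaperones and disulfide isomerases are induced by the factors ATF6 and XBP1 when folding demand rises. Hepatocytes also clear drugs and plant compounds with cytochromes P450 and conjugating enzymes under the nuclear receptors PXR and CAR, while fatty acids act on the receptor PPAR alpha and sterols on the factor SREBP2 to set lipid enzymes.

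**Figure D1:**
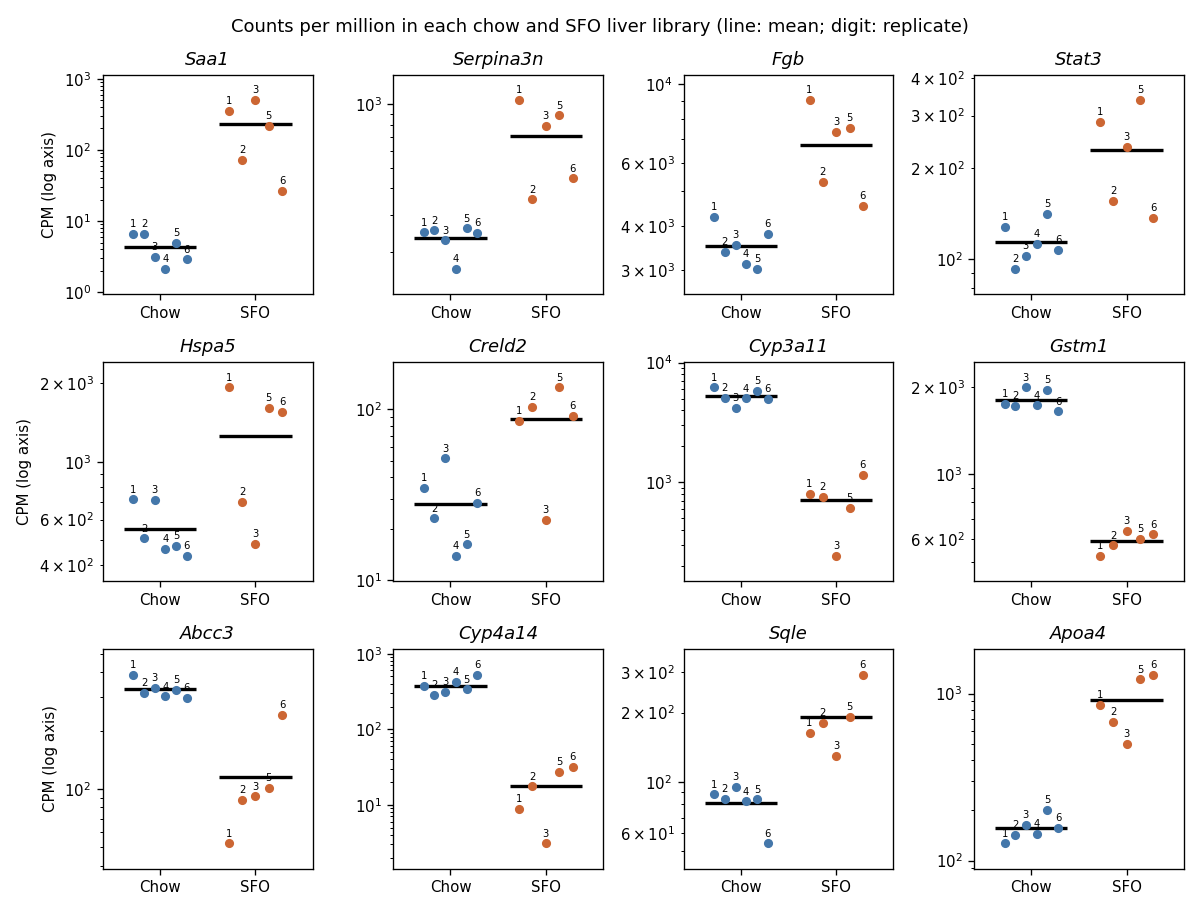
Level of 12 genes in each library, in CPM on log axes, for 6 chow libraries (blue) and 5 SFO libraries (orange). Each point is a library with its replicate number and the line is the group mean. Saa1, Serpina3n, Fgb, Gstm1, Cyp3a11, Abcc3, Cyp4a14, Sqle and Apoa4 do not overlap between the groups, whereas Stat3, Hspa5 and Creld2 do, with SFO 3 within the chow range for the last 2.

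Acute phase genes were higher in SFO livers. Of the 32 listed genes, 31 are in the count table and 30 were tested. Of these 16 rose and 0 fell (median 1.21), where 0.493% of all tested genes rose and 0.342% fell. All 30 had a positive fold change, and 0 were lower at an unadjusted p under 0.05 by edgeR. DESeq2 and limma voom also called 0 lower. The CPM ranges of the groups did not overlap for 9 of the 30, all higher in SFO, against 0.677% of all genes.

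Serum amyloid A, a lipoprotein-bound protein that climbs steeply in inflammation, showed the largest rises of the list. Saa1 ran from 2.14 to 6.65 CPM in chow (median 4.06) and was at 355, 72.3, 501, 219 and 26.3 CPM in SFO 1, 2, 3, 5 and 6. The lowest SFO library lay above the highest chow library, and the SFO libraries themselves spread widely, with SFO 3 highest and SFO 6 lowest. Saa1 thus rose by 5.76 ± 0.99 (adjusted p = 0.00386), and its neighbour Saa2 by 5.53 ± 1.01 (adjusted p = 0.00668). Saa4, the constitutive form, rose by 1.24 ± 0.28. These genes share sequence, so how counts divide between them is uncertain. Lcn2, which encodes lipocalin 2, a binder of bacterial iron carriers, ran from 0 to 4.74 CPM in chow (median 0.164) and was at 37.4, 13.8, 67.5, 24.9 and 1.90 CPM in SFO 1, 2, 3, 5 and 6. Its groups overlapped, since chow 3 was above SFO 6, and it kept its call only without chow 3 or SFO 6 (4.97 ± 1.24 with all libraries, 4.39 to 7.44 with a library left out). Saa4 lost its call without chow 4, 5 or 6 or SFO 1, 3 or 5 (1.04 to 1.46).

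The 3 chains of fibrinogen, the clotting protein, rose together and are neighbours in the genome. Fgb ran from 3023 to 4238 CPM in chow (median 3451) and was at 9035, 5315, 7369, 7539 and 4552 CPM in SFO 1, 2, 3, 5 and 6. All SFO libraries were above all chow libraries, with SFO 1 highest and SFO 6 lowest. Fgg was at 10135, 6005, 7239.8, 9177 and 5337 CPM in SFO 1, 2, 3, 5 and 6, against 3517 to 4663 CPM (median 3857) in chow, in the same order. The change was 0.94 ± 0.12 for Fgb (adjusted p = 2.40e-06), 0.94 ± 0.12 for Fgg (adjusted p = 1.64e-06) and 0.86 ± 0.14 for Fga (adjusted p = 0.000413). Serpina3n, an inhibitor of serine proteases, ran from 166 to 258 CPM in chow (median 246) and was at 1047, 355, 789.7, 885 and 446 CPM in SFO 1, 2, 3, 5 and 6. It rose by 1.60 ± 0.19 (adjusted p = 1.96e-07) with no overlap between the groups.

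Hp, which encodes the haemoglobin binder haptoglobin, ran from 1982 to 2406 CPM in chow (median 2076) and was at 7981, 4306, 5731, 6273 and 2619 CPM in SFO 1, 2, 3, 5 and 6. It rose by 1.35 ± 0.19 (adjusted p = 0.000135), again with every SFO library above chow. The haem binder Hpx, chosen after its values were seen, rose by 0.94 ± 0.22 but kept its call only without chow 6, SFO 2 or SFO 6 (0.72 to 1.11). Itih3, a heavy chain that is linked to hyaluronan, was at 1836, 1106, 1547, 1946 and 929 CPM in SFO 1, 2, 3, 5 and 6, against 585 to 814 CPM (median 659) in chow. Without overlap it rose by 1.12 ± 0.17 (adjusted p = 0.000135), and its neighbour Itih4 rose by 0.79 ± 0.15. Lrg1, a leucine-rich plasma glycoprotein, rose by 1.58 ± 0.24, Fgl1, a fibrinogen-like protein secreted by hepatocytes, by 1.97 ± 0.37, and Apcs, the serum amyloid P component, by 1.18 ± 0.30, a call that Apcs kept only without chow 6 or SFO 6 (1.02 to 1.37). Steap4, a reductase of iron and copper that inflammation induces, ran from 62.7 to 159.5 CPM in chow (median 104) and was at 829.9, 196, 322, 611 and 282 CPM in SFO 1, 2, 3, 5 and 6. Every SFO library was above every chow library, and the rise was 2.15 ± 0.34 (adjusted p = 0.000989).

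The other 14 tested members did not pass. Among them the metallothioneins Mt1 and Mt2, which bind zinc and copper, had 2.45 ± 0.80 and 3.17 ± 0.82, Orm2 had 2.64 ± 0.88 and Saa3 3.06 ± 1.24, all with wide errors. Crp, the C-reactive protein, which responds weakly in mice, had 0.32 ± 0.18, and Hamp, the iron hormone hepcidin, had 0.46 ± 0.32. Without chow 3, 4 and 5 the list had 8 rises of 31 tested (median 1.11), among them Serpina3n at 1.51 ± 0.24, Fgb at 0.84 ± 0.16 and Hp at 1.40 ± 0.25. Saa1 was then at 5.46 ± 1.42 (adjusted p = 0.253) and Saa2 at 5.33 ± 1.47 (adjusted p = 0.325), close to their values with all libraries but with larger errors.

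The messenger RNA of STAT3 was also higher, and the protein and its activity were not measured. Stat3 ran from 92.6 to 141 CPM in chow (median 109.6) and was at 285, 156, 235, 338 and 137 CPM in SFO 1, 2, 3, 5 and 6. SFO 6 lay within the chow range and SFO 1, 2, 3 and 5 above it, and the rise of 1.02 ± 0.21 (adjusted p = 0.00477) lost the call without SFO 5 (0.84 to 1.16 over the fits that left out a library) and without chow 3, 4 and 5 (1.08 ± 0.28, adjusted p = 0.0828), where the list had 0 calls. It was the only call among 23 tested genes of IL-6, IL-1 and STAT3 signalling (median 0.44), where 0.493% of all tested genes rose. Of the 23, 19 had a positive fold change. Socs3, the feedback inhibitor of this pathway, had 1.25 ± 0.55 (adjusted p = 0.515), and the receptor subunits Il6ra and Il6st had -0.68 ± 0.42 and 0.34 ± 0.26. The list level was highest in SFO 1 and lowest in SFO 2, and SFO 1, 5, 6, 3 and 2 stood at 1.03, 0.77, 0.41, 0.26 and 0.25 above the chow mean on the log2 scale. The chow libraries lay between -0.16 and 0.27, so that SFO 2 and SFO 3 were within their range.

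Stretches of the region upstream of called acute phase genes are shown because they hold letters of the elements that STAT3 or NF-kB can bind. They come from RefSeq (GRCm38.p6, another build than that of the counts, matched by symbol), run 5′ to 3′ on the strand of the gene, and have the matching letters in capitals. The STAT3 element was searched as TTCCNGGAA, which reads the same on both strands, and the NF-kB element as GGG, 2 bases of any kind and TTTCC on both strands, within 250 bases before the start.
Fga (chr3:83025903-83025972, + strand): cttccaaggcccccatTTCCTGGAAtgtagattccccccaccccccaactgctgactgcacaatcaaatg
Steap4 (chr5:7960311-7960409, + strand): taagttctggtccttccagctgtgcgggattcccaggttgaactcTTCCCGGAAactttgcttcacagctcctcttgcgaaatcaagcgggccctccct
Steap4 (chr5:7960222-7960300, + strand): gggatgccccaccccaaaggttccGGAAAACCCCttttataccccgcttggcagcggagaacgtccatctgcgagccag
Serpina3n (chr12:104406492-104406591, + strand): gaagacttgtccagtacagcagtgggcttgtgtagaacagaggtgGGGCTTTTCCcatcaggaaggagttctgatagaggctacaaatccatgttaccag
The NF-kB letters of Steap4 lie on the opposite strand. Of 14 called acute phase genes with an upstream sequence, 2 hold the STAT3 letters (Fga and Steap4) and 2 the NF-kB letters (Serpina3n and Steap4). Among 9605 tested genes with a sequence the shares are 1.23% and 1.68%, and among all 27025 promoters 1.09% and 1.65%. A match is a description of the letters and was not tested as a binding site.

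Genes of protein folding in the endoplasmic reticulum were also higher, though less evenly. All 30 listed genes were tested, and 8 rose and 0 fell (median 0.40), where 0.493% of all tested genes rose. Of the 30, 25 had a positive fold change and 0 were lower at an unadjusted p under 0.05 by edgeR. DESeq2 and limma voom also called 0 lower. The groups did not overlap for 2 of them, Pdia3 and Pdia6, both higher in SFO, against 0.677% of all genes.

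Hspa5, which encodes BiP, the chief chaperone of this compartment, ran from 434 to 718 CPM in chow (median 492) and was at 1932, 702, 483, 1612 and 1551 CPM in SFO 1, 2, 3, 5 and 6. It was high in SFO 1, 5 and 6, while SFO 2 and SFO 3 lay within the chow range. The rise was 1.18 ± 0.28 (adjusted p = 0.0432). Creld2, a secreted protein of the folding response, ran from 13.9 to 51.7 CPM in chow (median 25.7) and was at 85.4, 103, 22.7, 135 and 91.9 CPM in SFO 1, 2, 3, 5 and 6. SFO 1, 2, 5 and 6 were above all chow libraries and SFO 3 was within their range, for a rise of 1.65 ± 0.40 (adjusted p = 0.0288). Syvn1, the ubiquitin ligase that disposes of misfolded proteins, ran from 51.8 to 71.9 CPM in chow (median 59.8) and was at 209.8, 104, 69.5, 219.5 and 89.8 CPM in SFO 1, 2, 3, 5 and 6. Only SFO 3 overlapped with chow, and the rise was 1.20 ± 0.26 (adjusted p = 0.00668).

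Manf, a folding factor that is also secreted, was at 144, 53.4, 38.1, 105 and 152 CPM in SFO 1, 2, 3, 5 and 6, against 21.6 to 59.2 CPM (median 33.1) in chow. Pdia4, a disulfide isomerase, was at 492, 310.4, 225, 523 and 461 CPM in SFO 1, 2, 3, 5 and 6, against 181 to 326 CPM (median 238) in chow. Hsp90b1, the chaperone GRP94, was at 1707, 824, 835, 1510.2 and 1149.7 CPM in SFO 1, 2, 3, 5 and 6, against 644 to 956 CPM (median 729.9) in chow. In these 3 genes SFO 1, 5 and 6 were above every chow library and SFO 2 and SFO 3 were within the chow range. The changes were 1.48 ± 0.34 for Manf, 0.76 ± 0.18 for Pdia4 and 0.62 ± 0.15 for Hsp90b1, and 0.64 ± 0.16 and 0.68 ± 0.18 for the isomerases Pdia3 and Pdia6, all called. Hspa5 and Pdia6 were chosen after their values were seen. The co-chaperones Sdf2l1 and Hyou1 had 1.59 ± 0.44 and 1.43 ± 0.37 without passing (adjusted p = 0.0750 and 0.0925). The sensors and factors of the response were nearer to 0, with 0.39 ± 0.19 for Xbp1, 0.39 ± 0.23 for Atf6 and 0.40 ± 0.33 for Ern1. Among genes of retrotranslocation, Sel1l (-0.13 ± 0.17), Derl1 (0.07 ± 0.19) and Herpud1 (-0.08 ± 0.18) did not pass. Syvn1, which acts in the same disposal of misfolded proteins, rose as given above. Derl3, given below with a larger fold change, did not pass.

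These calls rest on few libraries. The 8 became 0 without SFO 1, 1 without SFO 5 or chow 5, 2 without chow 2, chow 6 or SFO 6 and 3 without chow 4, and 0 without chow 3, 4 and 5. The list's median stayed between 0.37 and 0.53 whichever library was left out, and was 0.41 without chow 3, 4 and 5, where Hspa5 was at 1.19 ± 0.36 (adjusted p = 0.444). Over the fits that left out a library, the fold changes of the 8 genes lay between 0.46 (Hsp90b1) and 1.91 (Creld2).

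**Figure D2:**
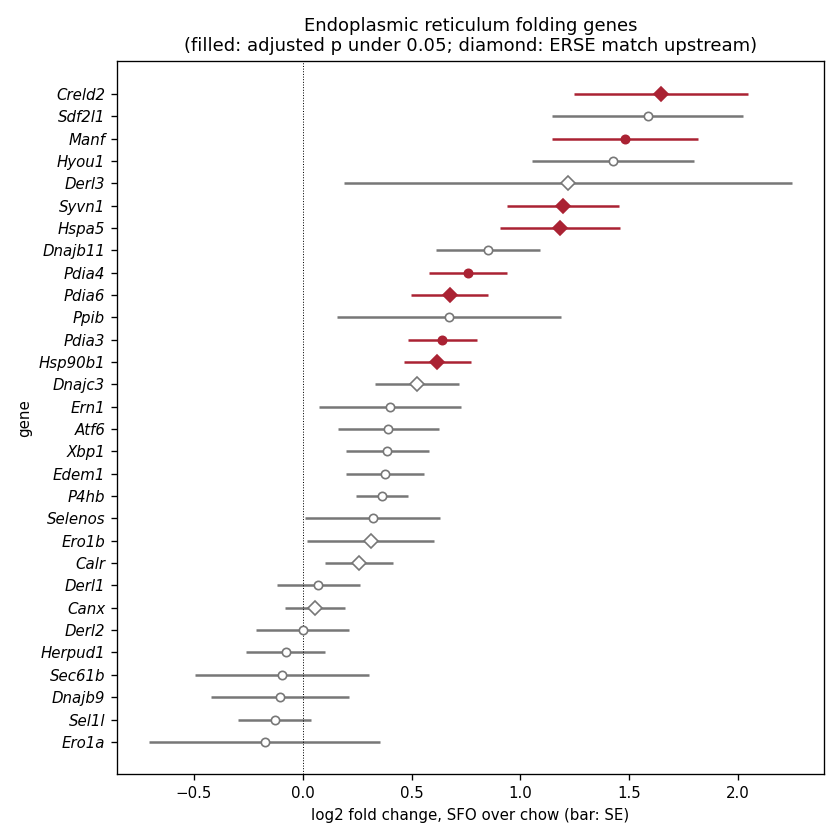
Log2 fold change, SFO over chow, with its SE for the 30 tested genes of endoplasmic reticulum folding. Filled red symbols passed the test, and diamonds have a match to the endoplasmic reticulum stress element upstream. The 8 called genes lie between 0.62 and 1.65, and 5 of them are diamonds.

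The endoplasmic reticulum stress element (ERSE), to which ATF6 and XBP1 bind together with the factor NF-Y, was searched as CCAAT, 9 bases of any kind and CCACG, on both strands of the 250 bases before the start. It holds the CCAAT box of NF-Y within it. The called genes with a match are shown (RefSeq, GRCm38.p6, 5′ to 3′ on the strand of the gene, with the element in capitals). They were picked as called genes, and a match was not tested as a binding site.
Hspa5 (chr2:34771980-34772088, + strand): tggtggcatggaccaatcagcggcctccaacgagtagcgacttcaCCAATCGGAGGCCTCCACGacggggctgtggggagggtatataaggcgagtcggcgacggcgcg
Hsp90b1 (chr10:86705488-86705694, - strand): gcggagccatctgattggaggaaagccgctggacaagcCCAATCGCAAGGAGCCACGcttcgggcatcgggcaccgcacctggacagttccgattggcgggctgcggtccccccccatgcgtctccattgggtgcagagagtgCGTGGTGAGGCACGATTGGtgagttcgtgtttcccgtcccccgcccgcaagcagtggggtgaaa
Pdia6 (chr12:17266446-17266554, + strand): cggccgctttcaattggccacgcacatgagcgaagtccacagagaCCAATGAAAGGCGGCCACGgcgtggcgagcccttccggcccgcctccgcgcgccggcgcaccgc
Creld2 (chr15:88819475-88819583, + strand): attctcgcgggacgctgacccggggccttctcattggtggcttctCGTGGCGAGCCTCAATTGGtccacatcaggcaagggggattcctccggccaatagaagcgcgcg
Syvn1 (chr19:6046487-6046575, + strand): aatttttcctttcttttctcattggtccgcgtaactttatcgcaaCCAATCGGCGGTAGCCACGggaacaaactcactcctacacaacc
In Creld2 the element lies on the opposite strand, and Hsp90b1 holds 2, with 1 on each strand. Among called folding genes 5 of 7 with a sequence have the element, and among all listed folding genes 10 of 26. It occurs in 17 of 9605 tested genes (0.177%) and in 35 of 27025 promoters (0.130%). The other listed genes with the element, Calr, Canx, Derl3, Dnajc3 and Ero1b, had fold changes of 0.26, 0.06, 1.22, 0.53 and 0.31 and did not pass.

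Acute phase and folding genes did not follow the same order among the SFO libraries. The acute phase list stood at 2.23, 1.07, 2.15, 1.83 and 0.25 above the chow mean in SFO 1, 2, 3, 5 and 6 (mean log2 CPM). The folding list stood at 0.90, 0.32, 0.20, 0.85 and 0.53. SFO 1 and SFO 5 were high on both, SFO 3 was high on the acute phase list and lowest on the folding list, and SFO 6 was lowest on the acute phase list and between the others on the folding list. Chow libraries lay between -0.29 and 0.15 on the former and between -0.25 and 0.29 on the latter.

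**Figure D3:**
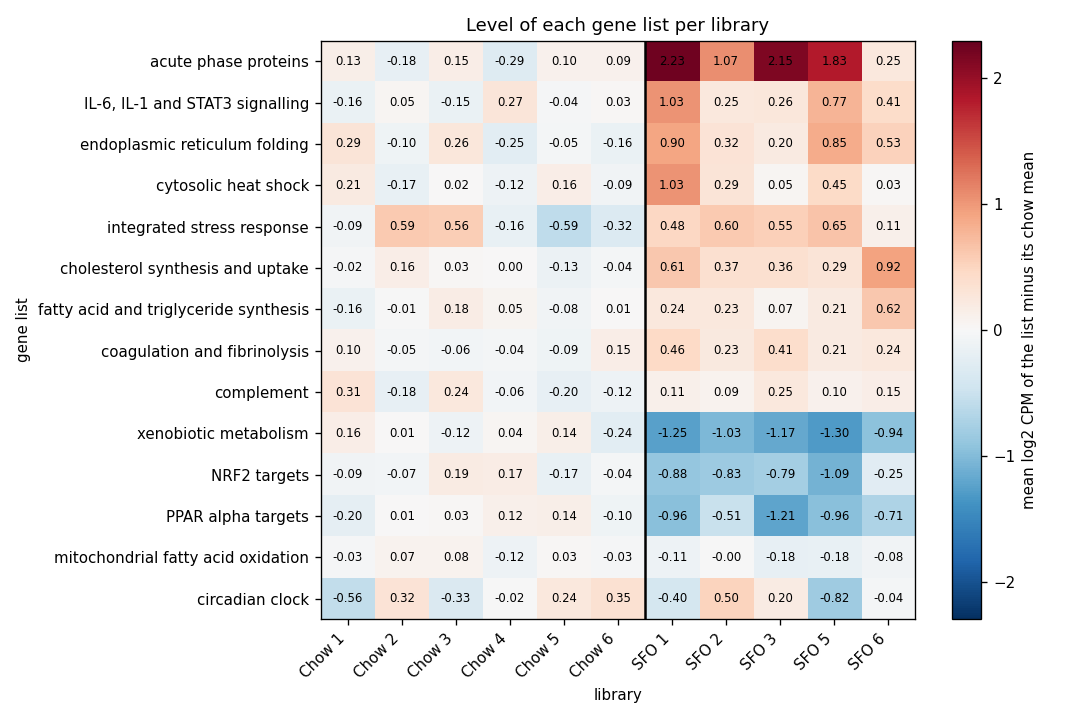
Mean log2 CPM of each gene list in each chow and SFO library, minus its mean over the chow libraries; red is above and blue below. Acute phase genes are high in SFO 1, 3 and 5 (2.23, 2.15 and 1.83) and near chow in SFO 6 (0.25), while xenobiotic genes are low in every SFO library (-0.94 to -1.30).

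Genes of xenobiotic metabolism were lower in SFO livers, in every SFO library. Of 45 listed genes, 43 are in the table and 40 were tested. Of these 0 rose and 13 fell (median -0.81), where 0.342% of all tested genes fell. By DESeq2 and by limma voom 0 rose as well. By edgeR 1 was higher at an unadjusted p under 0.05. The groups did not overlap for 16 genes, all lower in SFO, against 0.911% of all genes.

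Cyp3a11, the main drug-oxidising cytochrome P450 of mouse liver and a target of PXR, ran from 4194 to 6224 CPM in chow (median 5056) and was at 807, 758, 243, 614 and 1157 CPM in SFO 1, 2, 3, 5 and 6. The highest SFO library was far under the lowest chow library, and the gene fell by 2.87 ± 0.31 on the log2 scale (adjusted p = 1.55e-05). Its neighbours Cyp3a44 and Cyp3a25 had -3.89 ± 0.88 and -0.92 ± 0.17, both called, and Cyp3a44 lost the call without chow 5 (-4.35 to -3.57). Cyp2c29, another P450, ran from 1115 to 1454 CPM in chow (median 1263) and was at 594, 328, 290.2, 332 and 516 CPM in SFO 1, 2, 3, 5 and 6, with -1.63 ± 0.16 (adjusted p = 2.04e-09). Cyp2b10, the usual reporter of CAR and chosen after its values were seen, had 259 counts over the 6 chow libraries and 0 over the 5 SFO libraries, which makes it at least 60.6-fold lower (floor of 3 counts over the group, counting error only). It lost the call whichever of the 11 libraries was left out. Nr1i2 and Nr1i3, which encode PXR and CAR, had -0.38 ± 0.26 and -0.12 ± 0.53 and did not pass.

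Called members of this list include 4 glutathione transferases and 2 glucuronosyltransferases. Gstm1, a glutathione transferase, ran from 1644 to 1991 CPM in chow (median 1737) and was at 524, 569, 640.1, 601 and 622 CPM in SFO 1, 2, 3, 5 and 6. Both groups were tight and far apart, with -1.60 ± 0.13 (adjusted p = 9.18e-13, the smallest of all genes in this comparison). Gstm3, Gsta2 and Gsta4 had -2.15 ± 0.54, -3.61 ± 0.93 and -2.26 ± 0.46. Of these Gsta4 kept the call in all 11 fits that left out a library, Gstm3 only without chow 3, chow 6 or SFO 6 (-2.46 to -1.95) and Gsta2 only without SFO 3 (-4.66 to -3.33). The glucuronosyltransferases Ugt2b5 and Ugt2b35 had -0.89 ± 0.14 and -0.77 ± 0.20, and Ugdh, which makes their sugar donor and stands outside the list, had -0.91 ± 0.20. All of these were called, Ugt2b35 being lost in every fit but those without chow 4, SFO 2 or SFO 3 (-0.88 to -0.67) and Ugdh without SFO 5 (-1.01 to -0.78).

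Among hydrolases and exporters, the carboxylesterase Ces2a ran from 537 to 595 CPM in chow (median 576) and was at 218, 212, 161, 204 and 258 CPM in SFO 1, 2, 3, 5 and 6. It fell by 1.44 ± 0.15 (adjusted p = 9.19e-09), and the carboxylesterases Ces1d and Ces1f had -1.04 ± 0.17 and -0.93 ± 0.15. Abcc3, an exporter of glucuronides into blood, ran from 295 to 389.9 CPM in chow (median 319.6) and was at 52.3, 87.7, 91.3, 101 and 241 CPM in SFO 1, 2, 3, 5 and 6. SFO 6 was nearest to chow and SFO 1 farthest, without overlap, and the change was -1.51 ± 0.26 (adjusted p = 0.000832). Members of paralog families such as Cyp3a, Cyp2c, Gstm, Gsta, Ces and Ugt share sequence, so their separate counts are uncertain. Without chow 3, 4 and 5, 8 of 41 fell, with Cyp3a11 at -2.91 ± 0.36 and Gstm1 at -1.52 ± 0.15.

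Targets of NRF2, the factor of the antioxidant response, partly overlap with these functions. Of 20 listed genes 16 were tested, of which 0 rose and 3 fell (median -0.56), where 0.342% of all tested genes fell. By DESeq2 and limma voom 0 rose. By edgeR 1 was higher at an unadjusted p under 0.05. Ephx1, the microsomal epoxide hydrolase, ran from 443 to 645 CPM in chow (median 554) and was at 209, 157, 243, 154 and 191 CPM in SFO 1, 2, 3, 5 and 6. Gclc, the catalytic subunit of the enzyme that begins glutathione synthesis, ran from 423 to 602 CPM in chow (median 565) and was at 213, 299, 269.6, 244 and 299 CPM in SFO 1, 2, 3, 5 and 6. In both genes every SFO library was under every chow library, with -1.52 ± 0.18 (adjusted p = 1.96e-07) and -1.02 ± 0.16 (adjusted p = 3.70e-05). Gsr, glutathione reductase, was at 64.8, 73.7, 71.4, 103 and 66.7 CPM in SFO 1, 2, 3, 5 and 6, against 104 to 175 CPM (median 134) in chow. It fell by 0.84 ± 0.21 without overlap, SFO 5 being nearest to chow, but lost its call without chow 1, 4 or 6 or SFO 1, 2, 3 or 6 (-0.97 to -0.75). The list had 2 falls without chow 3, 4 and 5. Nqo1, a quinone reductase often used as the marker of NRF2, had -2.11 ± 0.99 (adjusted p = 0.586), with 9.86 CPM in SFO 6 and 0.0980 to 1.37 CPM in the other SFO libraries. Nfe2l2, which encodes NRF2, had -0.23 ± 0.24.

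In sulfur amino acid metabolism, Csad, the enzyme that commits cysteine to taurine, ran from 481 to 742 CPM in chow (median 574) and was at 156, 123, 186, 116 and 189 CPM in SFO 1, 2, 3, 5 and 6. It fell by 1.91 ± 0.20 (adjusted p = 9.19e-09) without overlap. Mat1a, which makes S-adenosylmethionine, was at 2559, 2366, 3257, 3140.3 and 2815 CPM in SFO 1, 2, 3, 5 and 6, against 1728 to 2601 CPM (median 1943) in chow. It rose by 0.46 ± 0.11 (adjusted p = 0.0288) with overlapping groups and kept its call only without chow 3, chow 6, SFO 1 or SFO 2 (0.41 to 0.55). Of the 20 tested genes of this list, 1 rose and 2 fell, Gclc being the second of these, and the median was 0.07. The shares over all tested genes were 0.493% and 0.342%. Without chow 3, 4 and 5 Csad (-1.81 ± 0.24) and Gclc (-1.05 ± 0.19) fell and 0 genes rose, and without chow 6 the list had 2 rises.

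Part of the listed PPAR alpha targets were lower in SFO. Of 34 tested genes (35 listed), 0 rose and 7 fell (median -0.34), where 0.342% of all tested genes fell. By DESeq2 and limma voom 0 rose. By edgeR 0 were higher at an unadjusted p under 0.05. Cyp4a14, a fatty acid omega-hydroxylase and a steep target of this receptor, ran from 284 to 530.5 CPM in chow (median 356) and was at 8.82, 17.6, 3.10, 27.2 and 31.8 CPM in SFO 1, 2, 3, 5 and 6. The groups were far apart, with -4.43 ± 0.81 (adjusted p = 0.00668), and SFO 3 was lowest. Its neighbour Cyp4a10 had -2.49 ± 0.54 (adjusted p = 0.0288), but lost its call without chow 2, chow 5, SFO 1, SFO 3, SFO 5 or SFO 6 (-2.74 to -2.29). Cyp4a12a, which growth hormone also controls, was at 281, 191, 218, 190.2 and 247 CPM in SFO 1, 2, 3, 5 and 6, against 344 to 691 CPM (median 439) in chow, and fell by 1.04 ± 0.22 (adjusted p = 0.00645).

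Acot1, a cytosolic acyl-CoA thioesterase, ran from 42.3 to 70.2 CPM in chow (median 58.0) and was at 4.61, 6.10, 17.8, 6.76 and 7.96 CPM in SFO 1, 2, 3, 5 and 6. Again the groups did not overlap, and Acot1 fell by 2.73 ± 0.55 (adjusted p = 0.00477). Of the peroxisomal genes, Ehhadh, the bifunctional enzyme of beta-oxidation, ran from 333 to 423 CPM in chow (median 398) and was at 222, 178, 223, 182 and 244 CPM in SFO 1, 2, 3, 5 and 6, with -0.91 ± 0.17 (adjusted p = 0.00109). The thiolase Acaa1b had -1.04 ± 0.22 and Pex11a, which divides peroxisomes, -0.95 ± 0.23, both called. Acaa1b lost the call without SFO 1, 3 or 5 (-1.10 to -0.94) and Pex11a without chow 2, chow 5, SFO 3, SFO 5 or SFO 6 (-1.07 to -0.78). Retsat, retinol saturase, is outside the list and had -0.998 ± 0.16 (adjusted p = 6.12e-05).

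Other targets of the same receptor did not pass. Cpt1a, which admits fatty acids to mitochondria, had 0.28 ± 0.14, and Ppara itself 0.08 ± 0.14. Of 20 genes of mitochondrial fatty acid oxidation, 0 were called by edgeR, DESeq2 or limma voom (median -0.10), 0 were higher and 1 was lower at an unadjusted p under 0.05. The 7 calls became 4 without SFO 3 or SFO 5, and 3 without chow 3, 4 and 5, where Cyp4a14 was at -4.49 ± 0.94 (adjusted p = 0.0605), Acot1 at -2.83 ± 0.63 and Ehhadh at -0.97 ± 0.21. The list stood below the chow mean in all 5 SFO libraries, by 0.51 in SFO 2 to 1.21 in SFO 3.

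**Figure D4:**
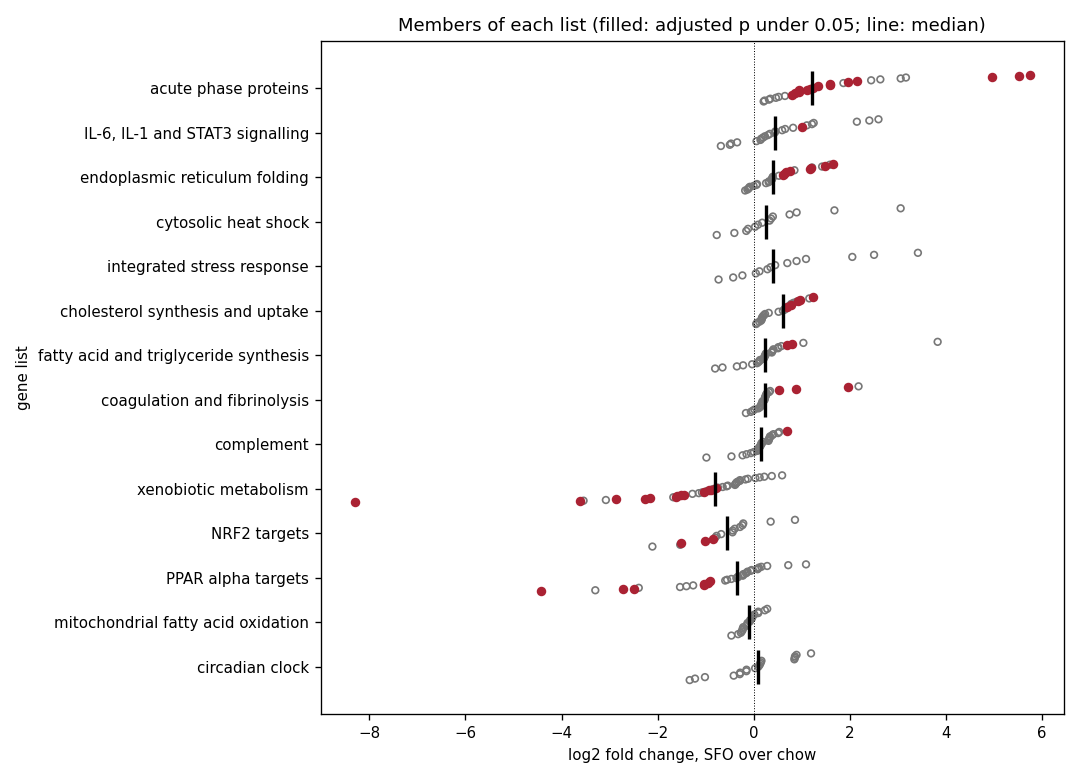
Log2 fold change, SFO over chow, of each tested member of 14 gene lists. Filled red points passed the test (adjusted p under 0.05), open points did not, and the vertical line is the median of the list. Acute phase genes have a median of 1.21 and xenobiotic genes of -0.81, and mitochondrial oxidation genes sit near 0 with no filled point.

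Cholesterol synthesis genes were higher. Of 27 listed genes 25 were tested, and 5 rose and 0 fell (median 0.61), where 0.493% of all tested genes rose. All 25 had a positive fold change, and 0 were lower at an unadjusted p under 0.05 by edgeR. DESeq2 and limma voom also called 0 lower. Sqle, squalene epoxidase, ran from 54.2 to 95.0 CPM in chow (median 84.2) and was at 163, 181, 130.0, 191 and 293 CPM in SFO 1, 2, 3, 5 and 6. It rose by 1.23 ± 0.23 (adjusted p = 0.00116) without overlap, SFO 6 being highest and chow 6 lowest, and kept the call in all 11 fits. Hmgcs1, which makes the precursor of mevalonate, ran from 303 to 561 CPM in chow (median 461) and was at 831, 709.5, 563, 682 and 1494 CPM in SFO 1, 2, 3, 5 and 6. It rose by 0.92 ± 0.22 (adjusted p = 0.0417), with SFO 6 far above the rest. Fdft1, squalene synthase, was at 251, 209, 118, 126 and 206 CPM in SFO 1, 2, 3, 5 and 6, against 76.2 to 115 CPM (median 93.1) in chow. Cyp51 and Msmo1 encode the oxidases that strip methyl groups from lanosterol. Msmo1 was at 339, 279, 258, 159 and 364 CPM in SFO 1, 2, 3, 5 and 6, against 139.7 to 210.2 CPM (median 156) in chow. Cyp51 was at 339, 256, 240.3, 333 and 519 CPM in SFO 1, 2, 3, 5 and 6, against 164 to 267 CPM (median 203) in chow. Fdft1 did not overlap with chow, whereas SFO 5 lay within the chow range for Msmo1 and SFO 2 and 3 for Cyp51. The changes were 0.96 ± 0.24 for Fdft1, 0.78 ± 0.18 for Msmo1 and 0.69 ± 0.17 for Cyp51.

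Srebf2, which encodes SREBP2, had 0.32 ± 0.28 and did not pass. The 5 calls became 1 without chow 6, SFO 1 or SFO 6, 2 without chow 1, 2 or 5 and 3 without SFO 2 or 5. Without chow 3, 4 and 5 there was 1 call (Sqle, 1.35 ± 0.31), and the median was 0.64. Over the fits that left out a library, the fold changes of the other 4 called genes lay between 0.49 (Cyp51) and 1.09 (Fdft1). The list was highest in SFO 6, at 0.92 above the chow mean, and at 0.61, 0.37, 0.36 and 0.29 in SFO 1, 2, 3 and 5, so that its order differed from that of the acute phase list.

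In fatty acid synthesis, the enzymes that lengthen and desaturate polyunsaturated fatty acids were the ones called. Of 26 tested genes (27 listed) 2 rose and 0 fell (median 0.24), where 0.493% of all tested genes rose. DESeq2 and limma voom also had 0 falls. By edgeR 2 genes were lower at an unadjusted p under 0.05. Fads2, the delta-6 desaturase, ran from 519 to 1103 CPM in chow (median 729) and was at 1108, 1410.0, 1613, 974 and 1491 CPM in SFO 1, 2, 3, 5 and 6, with 0.79 ± 0.16 (adjusted p = 0.00461). Elovl5, an elongase of the same pathway, ran from 597 to 933 CPM in chow (median 712) and was at 1173, 1088, 723, 1306 and 1679 CPM in SFO 1, 2, 3, 5 and 6, with 0.70 ± 0.14 (adjusted p = 0.00302). SFO 5 lay within the chow range for Fads2 and SFO 3 for Elovl5. The list had 4 rises without chow 6, and 1 (Elovl5) without chow 3, 4 and 5. Fads1 and Elovl2, the partners of these enzymes, had 0.51 ± 0.14 (adjusted p = 0.0684) and 0.51 ± 0.14 (adjusted p = 0.0526). Scd1, the main desaturase of saturated fatty acids, had -0.65 ± 0.27 and Fasn, fatty acid synthase, 0.38 ± 0.29, neither of them called.

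Among lipoprotein genes 2 of 25 tested rose and 0 fell by edgeR, where 0.493% of all tested genes rose. DESeq2 called 2 higher and limma voom 1, each with 0 lower. By edgeR 0 were lower at an unadjusted p under 0.05. Apoa4, an apolipoprotein of triglyceride-rich particles, ran from 127 to 202 CPM in chow (median 151) and was at 858, 675, 498, 1217 and 1302 CPM in SFO 1, 2, 3, 5 and 6. The change was 2.54 ± 0.29 (adjusted p = 2.26e-05), the lowest SFO library being well above the highest chow library. Apoa1, the main protein of high-density lipoprotein, ran from 6765 to 8999.9 CPM in chow (median 7927) and was at 12289, 13350.5, 10994, 9514 and 12634 CPM in SFO 1, 2, 3, 5 and 6, with 0.56 ± 0.10 (adjusted p = 0.000832). Apob and Apoe had 0.09 ± 0.12 and -0.10 ± 0.10. In bile acid metabolism the sodium-dependent uptake transporter Slc10a2 ran from 2.56 to 19.1 CPM in chow (median 9.28) and was at 81.1, 50.4, 21.1, 38.9 and 69.4 CPM in SFO 1, 2, 3, 5 and 6, with 2.23 ± 0.40 (adjusted p = 0.000598). Both lipoprotein calls and that of Slc10a2 held whichever library was left out and without chow 3, 4 and 5. The other 19 tested genes of the bile acid list did not pass, among them Cyp7a1, the rate-limiting enzyme of bile acid synthesis (-0.76 ± 0.50).

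Further plasma proteins were called in the coagulation and complement lists, where 0.493% of all tested genes rose. In coagulation 3 of 24 tested genes rose, F11, Serpinf2 and Fgl1, the last of which is also on the acute phase list. Fgl1 was at 745, 369, 695, 549.7 and 138 CPM in SFO 1, 2, 3, 5 and 6, against 94.3 to 190.4 CPM (median 115) in chow. F11, the zymogen of factor XI, was at 172, 216, 197, 202 and 189.5 CPM in SFO 1, 2, 3, 5 and 6, against 89.9 to 124 CPM (median 104) in chow. Serpinf2, the plasmin inhibitor, was at 1242, 914, 1136, 1006 and 832 CPM in SFO 1, 2, 3, 5 and 6, against 604 to 848 CPM (median 698) in chow. The groups did not overlap for F11 (0.89 ± 0.22) and did for Serpinf2 (0.53 ± 0.14). F11 kept its call only without chow 4, chow 6, SFO 1 or SFO 6 (0.85 to 0.95), and Serpinf2 only without chow 6, SFO 2 or SFO 6 (0.45 to 0.60). In complement 1 of 25 rose, C4b, which ran from 927 to 1179 CPM in chow (median 1100.0) and was at 1665, 1639, 2188, 1834 and 1396 CPM in SFO 1, 2, 3, 5 and 6, for a change of 0.70 ± 0.13 (adjusted p = 0.000832). In iron and metal handling Slc39a14, the zinc and iron importer ZIP14, rose by 0.93 ± 0.19 together with Steap4, which is also on the acute phase list, of 23 tested. Of these 3 lists 0 genes were called without chow 3, 4 and 5, where C4b was at 0.64 ± 0.16 and Slc39a14 at 0.90 ± 0.25. With 1 library left out, complement had 2 rises without SFO 2, and coagulation 1 without chow 1, 2, 3 or 5 or SFO 3 or 5. Serpina10, the protein Z-dependent inhibitor, and Fn1, fibronectin, were chosen after their values were seen and rose by 1.05 ± 0.21 and 0.66 ± 0.12.

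Several further large changes belong to no pathway list. The liver anion transporter Slc22a7 rose by 2.31 ± 0.45, the ferritin receptor Scara5 by 2.54 ± 0.55 and the phospholipid flippase Atp11a by 2.63 ± 0.61. Atp11a ran from 0.489 to 19.7 CPM in chow (median 13.6) and was at 116, 41.4, 67.1, 71.3 and 44.9 CPM in SFO 1, 2, 3, 5 and 6, with no overlap. It lost the call without chow 2 or SFO 1 (2.35 to 2.89), and Scara5 without SFO 1 or SFO 5 (2.27 to 2.77). With chow 3, 4 and 5 left out, Slc22a7 (2.68 ± 0.61, adjusted p = 0.0789) and Scara5 (2.32 ± 0.72, adjusted p = 0.350) did not pass, and Atp11a did (2.81 ± 0.67, adjusted p = 0.0478). Prtn3, the neutrophil protease proteinase 3 and chosen after its values were seen, had 0 counts over the 6 chow libraries and 242 over the 5 SFO libraries, at least 115-fold higher, and was present in each SFO library (1.52 to 9.47 CPM). It lost its call without chow 5, and without chow 3, 4 and 5 together (adjusted p = 0.444). The long noncoding RNA Neat1 rose by 1.36 ± 0.27, although SFO 3, at 87.0 CPM, lay within the chow range. The lactate dehydrogenase subunit Ldha rose by 0.69 ± 0.12, and the neighbouring secreted ribonucleases Rnase4 and Ang by 0.94 ± 0.15 and 1.21 ± 0.30, Ang keeping its call only without chow 5 or SFO 6 (1.08 to 1.40) among the fits that left out 1 library, and missing it without chow 3, 4 and 5 (adjusted p = 0.215). Among falls, Akr1c19, an aldo-keto reductase, had -2.005 ± 0.37 (adjusted p = 0.000989).

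Hepatocytes near the portal vein and near the central vein express different genes, and both sets held calls in either direction. The shares over all tested genes were 0.493% higher and 0.342% lower. Of 20 tested periportal genes 2 rose, Apoa4 and Mup20, and 2 fell, Etnppl and Cyp2f2. Mup20, a major urinary protein that growth hormone also controls, was at 5988, 3957, 3708, 4131 and 3534 CPM in SFO 1, 2, 3, 5 and 6, against 2012 to 3326 CPM (median 2405) in chow, for a rise of 0.76 ± 0.18. Etnppl, a phospholyase of phosphoethanolamine, was at 22.8, 103, 94.3, 71.7 and 35.8 CPM in SFO 1, 2, 3, 5 and 6, against 141 to 289 CPM (median 165) in chow, with -1.58 ± 0.38. Cyp2f2, a P450 of periportal cells, was at 1346, 1026, 1683, 1270.2 and 1104 CPM in SFO 1, 2, 3, 5 and 6, against 1469 to 2440.3 CPM (median 1748) in chow, with -0.52 ± 0.14. Apart from Apoa4 these calls were fragile. Mup20 kept its call only without chow 1, SFO 3 or SFO 6 (0.61 to 0.86), Etnppl only without chow 3, chow 4, SFO 2 or SFO 3 (-1.79 to -1.36) and Cyp2f2 only without chow 4, chow 6 or SFO 3 (-0.64 to -0.43). Of 20 tested pericentral genes 1 rose, Lect2, a hepatokine (1.12 ± 0.25, lost without SFO 6, 0.91 to 1.29), and 1 fell, Ces1f. Without chow 3, 4 and 5, Apoa4 and Lect2 rose, Ces1f fell and Cyp2f2 was at -0.66 ± 0.16.

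Lists with 0 calls by edgeR are given with their counts at an unadjusted p under 0.05. The share of all tested genes at that limit is not given here, so these counts are not read as results about the lists. These were 3 higher and 1 lower of 30 interferon response genes, 2 higher and 1 lower of 30 amino acid and urea cycle genes, and 2 higher and 1 lower of 23 glucose and glycogen genes. They were 1 higher of 19 clock genes, 2 higher of 14 integrated stress response genes, 5 higher of 14 cytosolic heat shock genes and 3 lower of 18 lipid droplet genes. DESeq2 and limma voom each called 1 interferon gene higher and 0 in the other 6 lists.

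Markers of other cell types were set beside these results, where 0.493% of all tested genes rose and 0.342% fell. Of 28 tested skeletal muscle genes, Myot and Casq1 fell, 20 were lower at an unadjusted p under 0.05 by edgeR, and the median was -4.92. The share of all tested genes at that unadjusted limit is not given here. Myot, a sarcomere protein, had 1244 counts over the chow libraries and 1 over the SFO libraries, so that the chow level was 873 times that of SFO (95% counting interval 156 to 34522), and its counts came mostly from chow 3, 4 and 5. Myot lost its call without SFO 1, 2 or 5 and had too few counts to be tested without chow 3, 4, 5 or 6. Hspb7, a muscle heat shock protein chosen after its values were seen, had 529 and 0 counts and was at least 124-fold lower, and Ldhb, a muscle and heart lactate dehydrogenase subunit, had 2.06 to 17.0 CPM in chow and 0 to 0.379 CPM in SFO and kept its call only without chow 6 (-5.99 to -5.28). Hspb7 lost its call without chow 3, 4 or 5 or any SFO library. Without chow 3, 4 and 5 together, Ldhb was at -4.26 ± 1.66 (adjusted p = 0.732). The chow libraries with few muscle transcripts thus also had more Ldhb than every SFO library. The part of muscle transcripts in the calls of the other lists was not tested beyond the fits without chow 3, 4 and 5 given above and the fit with the muscle level as a covariate, in which 62 genes were called, 59 of them among the 100. In that covariate fit 12 acute phase genes rose (median 1.06), beside 16 in the main fit. Folding had 2 rises beside 8 (median 0.39), cholesterol 1 beside 5 (median 0.60) and coagulation 0 beside 3. Xenobiotic genes had 11 falls beside 13 (median -0.86) and PPAR alpha targets 4 beside 7 (median -0.27). Of 17 tested Kupffer cell and macrophage genes, 1 rose, Mpeg1, a pore-forming protein of macrophages that ran from 18.1 to 34.7 CPM in chow (median 31.6) and was at 112, 34.7, 98.3, 64.8 and 76.8 CPM in SFO 1, 2, 3, 5 and 6 (1.41 ± 0.32, adjusted p = 0.0150, lost without chow 4, SFO 1 or SFO 3, 1.24 to 1.60). The summed level of 18 such genes was 167 to 401 CPM in chow and 197 to 419.8 CPM in SFO. Neutrophil markers were near 0 in both groups, with 3 of 10 listed genes in the table and a sum of 0.312 to 7.26 CPM in chow and 0 to 3.19 CPM in SFO. T and NK cell markers summed to 0.128 to 4.15 CPM and 0.359 to 9.40 CPM, and B cell markers to 0.750 to 10.8 CPM and 0.0911 to 12.8 CPM. None of the tested T and NK cell, B cell, neutrophil, endothelial, stellate, cholangiocyte, adipocyte, erythroid or exocrine pancreas markers was called by edgeR or DESeq2. At an unadjusted p under 0.05, 2 endothelial markers were lower, and 2 stellate and 1 cholangiocyte marker higher, again without the share of all tested genes.

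SFO livers were also compared with livers of the other oil diets, to show how they stand apart from mice on another oil. These comparisons share the SFO libraries with the one against chow, so their calls are not independent of it and are set side by side as values. Against CSO 59 genes were called, 25 of them higher and 34 lower in SFO (0.209% and 0.284% of tested genes), and the number was 30 without CSO 6, 31 without SFO 5, 33 without CSO 5 and 38 without CSO 4. Against OO there were 127 (1.06%), 32 higher and 95 lower (0.267% and 0.794%). The latter number was unstable, falling to 2 with only SFO and OO libraries in the fit and to 9 with limma voom, and scaled by library totals alone it was 33 higher and 23 lower. It was 240 without OO 5, 78 and 84 without OO 2 and OO 3, and 53, 72 and 31 without SFO 1, 3 and 5.

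By edgeR, acute phase genes had 9 rises of 30 against CSO (median 0.87) and 7 against OO (median 0.66). The shares of all tested genes that rose were 0.209% and 0.267%. Limma voom called 0 of all tested genes higher against OO, and the fit with only these 2 diets called 1. Relative to the chow mean, the list stood at 0.25 in SFO 6 and at 1.07 or more in the other SFO libraries. It ran from -0.12 to 0.64 in CSO and from -0.22 to 0.97 in OO. SFO 6 thus lay within both ranges, and the other SFO libraries lay above them. Saa1 was at 4.40 ± 1.95 CPM in chow (mean ± SD), 17.2 ± 27.2 CPM in OO and 11.96 ± 7.91 CPM in CSO, over 6 libraries each. It was at 235 ± 197 CPM over the 5 SFO libraries. Its differences from CSO and OO were 4.30 ± 0.92 (adjusted p = 0.0380) and 3.76 ± 0.90 (adjusted p = 0.0499). Fgg differed by 0.998 ± 0.12 from CSO and 0.48 ± 0.12 from OO, and Serpina3n by 0.82 ± 0.19 and 0.80 ± 0.19, all called. Mt2 rose by 3.80 ± 0.85 and 4.25 ± 0.86 although it did not pass against chow, with SFO 6 at 2.27 CPM and the other SFO libraries at 19.0 CPM or more.

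Folding genes had medians of 0.42 against CSO and 0.21 against OO, and Hspa5 had 0.72 ± 0.27 and 0.52 ± 0.27 without passing. Of 40 xenobiotic genes 3 fell against each oil, with medians of -0.32 against CSO and -0.46 against OO. The shares of all tested genes that fell were 0.284% and 0.794%. Cyp3a11 was at 5219 ± 708 CPM in chow, 766 ± 194 in CSO, 861 ± 246 in OO and 716 ± 331 in SFO. Its differences between SFO and the other oils were -0.10 ± 0.28 and -0.27 ± 0.28 and did not pass. Abcc3 was lower than in CSO (-1.19 ± 0.26, adjusted p = 0.0182) and had -0.79 ± 0.25 against OO.

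Of 34 PPAR alpha targets 12 fell against CSO (median -0.68) and 3 against OO (median -0.23), beside the 7 against chow. The shares of all tested genes that fell were 0.284%, 0.794% and 0.342% in these comparisons. Cyp4a14 was at 378 ± 90.0 CPM in chow, 611 ± 261 in CSO, 76.6 ± 72.1 in OO and 17.7 ± 12.1 in SFO. Against CSO it fell by 5.12 ± 0.84, Acot1 by 2.75 ± 0.55 and Cyp4a10 by 2.69 ± 0.55, while against OO they had -2.13 ± 0.74, -0.74 ± 0.52 and -1.50 ± 0.52 without passing. Acaa1b and Ehhadh fell against both oils by edgeR, by 1.50 ± 0.22 and 0.89 ± 0.17 against CSO and by 1.11 ± 0.22 and 0.86 ± 0.17 against OO. Over all tested genes, limma voom called 9 lower against OO, and the fit with only these 2 diets called 1.

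Cholesterol genes had medians of -0.09 against CSO and -0.14 against OO. Against OO 1 of 25 fell (Sc5d, -0.62 ± 0.15, chosen after its values were seen), where 0.794% of all tested genes fell. Sqle was at 137 ± 33.6 CPM in CSO, 160.2 ± 60.0 in OO and 192 ± 61.1 in SFO, against 81.4 ± 14.1 in chow. Apoa4 was likewise at 634 ± 88.5, 885 ± 451 and 910.1 ± 345 CPM in the oils and 156 ± 25.8 in chow. Fads2 was lower in SFO than in CSO (-0.67 ± 0.16, adjusted p = 0.0420), at 1319 ± 268 against 2097 ± 405 CPM, and Scd1 was lower than in OO (-1.30 ± 0.27, adjusted p = 0.0277).

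Outside the lists, SFO livers were higher than CSO livers in Chka, the choline kinase that begins phosphatidylcholine synthesis (2.34 ± 0.44), Slc30a10, a manganese exporter (1.91 ± 0.34), and Clpx, the regulatory subunit of a mitochondrial protease (1.50 ± 0.22). Against chow these had 0.94 ± 0.42, 0.11 ± 0.33 and 0.52 ± 0.22 and did not pass. SFO livers were lower than OO livers in Gstt3, a glutathione transferase (-2.10 ± 0.39), Snx25, a sorting nexin (-2.16 ± 0.44), and Rpain, a nuclear import factor (-2.63 ± 0.63), none of which passed against chow.

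**Figure D5:**
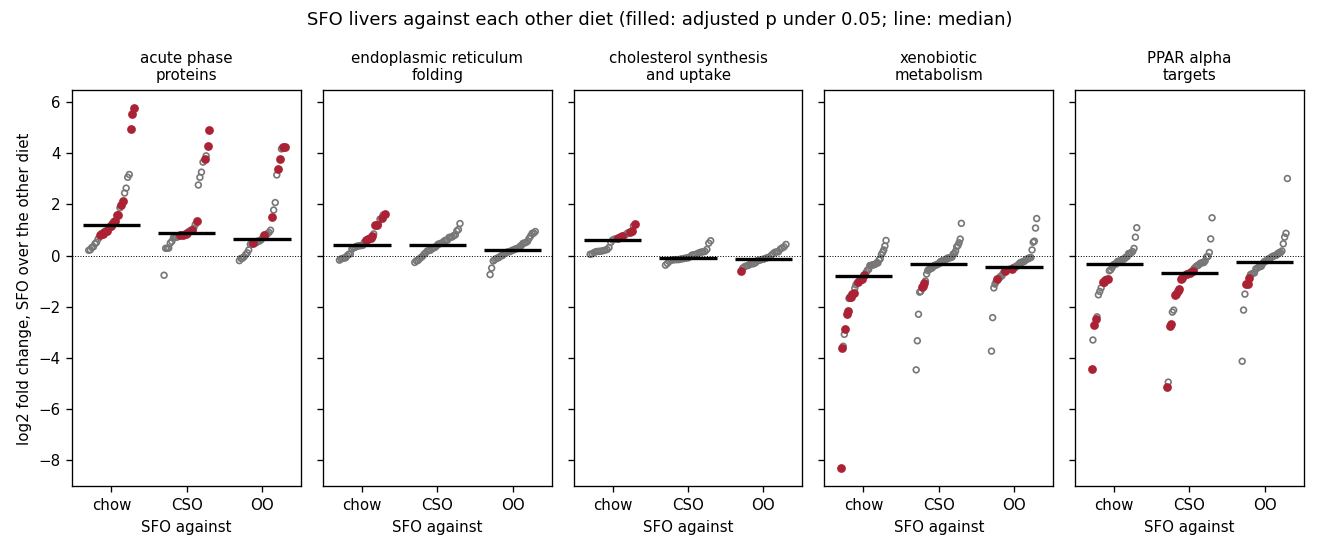
Log2 fold change of SFO over chow, CSO and OO for the tested members of 5 gene lists. Filled red points passed the test and lines are medians. Acute phase medians are 1.21, 0.87 and 0.66, and cholesterol medians are 0.61 against chow but -0.09 and -0.14 against the other oils.

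The authors' deposited table of chow against SFO, read with the sign turned, holds 104 genes higher and 101 lower in SFO at an adjusted p under 0.05. The 59 rises and 41 falls given here are all called in the same direction in the authors' deposited table. The DESeq2 alternative run here also had 104 higher and 101 lower, with all 100 calls among them, so this match is not an independent check. By list it has 17 acute phase genes higher, 11 folding genes higher, 15 xenobiotic genes lower, 7 PPAR alpha targets lower, 5 cholesterol genes higher and 12 muscle genes lower in the authors' deposited table.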

How the data were processed

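Liver RNA of 24 labelled mouse samples was read with QuantSeq, and 23 have a column in the count table. The authors deposited raw counts per gene, with no normalisation. Per the submitters' processing notes the tools were Trimmomatic, STAR 2.7.1a, HTSeq 0.9.1, DESeq2 and DESeq, with genome build mm39, and whether counting used strand is not stated in the labels. The authors also deposited a table of chow against SFO with log2 fold changes and their log2 errors, a score (the test statistic), and p-values before and after adjustment, used here only where named.

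Counts were analysed in R 4.3.3. Of 13686 genes, filterByExpr kept 11971 (99.9% of counts). The 4 diets were fitted together in edgeR 4.0.16 after TMM scaling, with diet as the only term and a robust quasi-likelihood test, and p-values were adjusted by Benjamini-Hochberg over all tested genes. CPM used TMM library sizes, and log2 CPM a prior count of 2. A 0 total in a group was given a floor of 3 counts over the group, and ratios a 95% counting interval, both of which cover counting error only. Depth ran from 5.43e+06 to 1.49e+07 counts a library. DESeq2 1.42.0, limma 3.58.1 voom, other scalings and filters, an effect of at least 1 on the log2 scale, only the 2 diets compared, a replicate block, the muscle level as a covariate, and libraries left out were alternatives. Figures were drawn with matplotlib 3.10.9 in Python 3.11.15. Promoters from RefSeq matched 9605 tested genes by symbol.

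The comparison, the 25 pathway lists and the 12 marker lists were chosen with earlier results of these data known. Genes were named by a rule, the 12 largest rises and falls against chow (adjusted p under 0.05, mean log2 CPM of at least 1, every SFO library on the same side of the chow mean, predicted genes skipped), 6 each way against CSO and OO, and up to 6 called members of each list, or the 2 most expressed where none was called. Some of the 112 genes that met the rule, and 1 library value that stood apart, are not reported here. Chosen after their values were seen were Saa4, Hpx, Itih4, Lrg1, Apcs, Hspa5, Pdia6, Cyp2b10, Cyp3a25, Cyp4a12b, Ugt2b35, Ugdh, Abcc3, Retsat, Serpina10, Fn1, Prtn3, Neat1, Ldha, Rnase4, Ang, Gfra1, Myh9, Hspb7, Ldhb, Alb, Sc5d, Scd1 and members printed without a call. Members of families such as Saa, Cyp3a, Cyp4a, Cyp2c, Gstm, Gsta, Ces, Ugt, Mup and Acot hold like sequences, which makes the division of counts among them uncertain.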

Additional observations from a re-analysis of the deposited data

Results flagged for a closer look

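In 24 of 368 groups examined, a library stood apart from the rest of its own group, with a gap to the next library that is large for the range of the group (Dixon's 95% limit). Chance flags about 1 in 20 groups. All values are log2 CPM.

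Among acute phase and folding genes, chow 3 was highest for Lcn2 (2.31) and Hp (11.2), chow 4 was lowest for Serpina3n (7.38), and SFO 3 was lowest for Creld2 (4.52), the next SFO library being at 6.42. Among detoxification genes, chow 3 was lowest for Gsta4 (5.09) and SFO 5 was highest for Gsr (6.68). Among lipid genes, chow 6 was lowest for Sqle (5.77) and Pex11a (6.47), SFO 1 was highest for Cyp4a12b (6.38), and SFO 3 was highest for Hsd17b13 (9.41), a lipid droplet protein.

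SFO 2 was lowest for the urea cycle enzyme Cps1 (11.3) and highest for Rpain (3.61). Chow 1 was lowest for the clock genes Tef (6.14) and Bhlhe40 (6.01). SFO 3 was lowest for Neat1 (6.45), with the next SFO library at 8.10. Chow 6 was lowest for Slc22a7 (1.30), chow 3 for Nmi (2.12), and chow 4 for Gfra1 (7.26) and Myh9 (7.19). Among markers of other cells, SFO 6 was highest for Myot (-1.35) and SFO 3 for Casq1 (-1.76), each on a single count, and chow 6 for Lck (0.30). The mean of the sulfur amino acid and methyl cycle list was highest in SFO 1 (8.11). The fold changes given for these genes include the libraries named.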

How the results depend on the processing

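The 100 genes called in SFO against chow kept their sign in every alternative that tested them. Signs were not counted this way for the other comparisons. For SFO against chow, 100 genes were called, and 205 with DESeq2, 57 with an effect of at least 1 on the log2 scale, 37 without chow 3, 4 and 5, and 62 with the muscle level as a covariate. Scaled by library totals alone, the split was 48 higher and 49 lower, beside 59 and 41. Leaving out a library gave 59 to 87 calls, with 64 without chow 5, 60 without SFO 1 and 59 without SFO 5. For SFO against CSO, 59 genes were called, and 141 with DESeq2, 127 with limma voom (60 higher and 67 lower, beside 25 and 34), 91 with only the 2 diets in the fit, 34 with an effect of at least 1, and 23 with a clock score as a covariate, an alternative chosen after seeing the data, under which SFO against chow had 104 calls. Leaving out a library gave 30 to 77, with 38, 33 and 30 without CSO 4, 5 and 6 and 31 without SFO 5. For SFO against OO, 127 genes were called, and 56 with library totals (33 higher and 23 lower, beside 32 and 95), 461 with DESeq2, 9 with limma voom, 2 with only the 2 diets in the fit, 69 with an effect of at least 1, and 80 with the muscle level as a covariate. Leaving out a library gave 31 to 240, with 78, 84 and 240 without OO 2, 3 and 5 and 53, 72 and 31 without SFO 1, 3 and 5.

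Same-numbered chow and SFO libraries did not deviate together (correlations from -0.028 to 0.029), and only SFO 1 correlated best with its own number. With the replicate block, 91 genes were called against chow, 63 against CSO and 77 against OO. Where a count changed, the cause was not tested, apart from fewer libraries or a stricter limit where an alternative was made that way. The shallowest library held 5428649 counts, and genes of a few CPM, such as Saa1 or Lcn2 in chow, rest on few reads there.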

Other observations

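Clock genes spread widely within both diets. A clock score, the mean log2 CPM of 5 genes (Per2, Per3, Tef, Dbp and Ciart) minus that of 4 (Clock, Arntl, Npas2 and Nfil3), ran from -2.08 to 1.25 in chow, and was -0.69, 2.01, 2.84, -2.74 and -0.49 in SFO 1, 2, 3, 5 and 6. SFO 5 was below every chow library, and SFO 2 and SFO 3 were above every chow library. The labels do not state the time of day of tissue collection. The order of the SFO libraries on this score differs from their order on the acute phase list, on which SFO 1 and SFO 3 are highest, while SFO 2 and SFO 3, the highest on the clock score, are the lowest on the folding list.

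Called genes that are next to each other in the gene order of the RefSeq table and changed the same way formed 7 runs with 19 genes. The rising runs were Saa4, Saa1 and Saa2, Fgg, Fga and Fgb, Itih4 and Itih3, and Rnase4 and Ang. The falling runs were Cyp4a12a, Cyp4a12b, Cyp4a14 and Cyp4a10, Cyp3a44, Cyp3a11 and Cyp3a25, and Gsta4 and Gsta2. Each run is made of members of 1 gene family, and the part of shared reads in their common change was not tested.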
